A study of Arabidopsis thaliana with 12 samples.

Results

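The 10 genes described here make, break down, perceive or restrain abscisic acid in Arabidopsis thaliana. They are NCED3 (AT3G14440), the hydroxylases CYP707A1 (AT4G19230), CYP707A2 (AT2G29090) and CYP707A3 (AT5G45340), the phosphatases ABI1 (AT4G26080), ABI2 (AT5G57050), HAI1 (AT5G59220) and HAI2 (AT1G07430), and the receptors PYL5 (AT5G05440) and PYL6 (AT2G40330). They were picked by locus identifier and make up 10 of the 27655 genes in the table of expression values. Messenger RNA was sequenced from whole seedlings of fve-4, a mutant of the chromatin protein FVE, and of wild-type Columbia (Col). All seedlings were 7 days old and had been raised at 21 °C in short days of 8 h light and 16 h dark. At ZT1, an hour after lights on, they were moved to 27 °C or stayed at 21 °C, and every group was harvested at ZT13, 12 h later. The groups were fve-4 at 27 °C, Col at 27 °C, fve-4 at 21 °C and Col at 21 °C, with 3 libraries each. All mutant libraries carry the same fve-4 allele, and the labels name no rescued line. The question behind the series is the role of FVE when seedlings get warm. The protocol also mentions mannitol, an osmotic stress known to raise this hormone. No label ties a library to it, and all 12 were taken as grown without it, which is an assumption.

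Abscisic acid is the plant hormone of drought, salt stress and seed dormancy. NCED enzymes cleave a carotenoid in the plastid, the step that usually limits synthesis, and CYP707A enzymes hydroxylate the hormone and so start its breakdown. Receptors of the PYR/PYL family bind the hormone and then hold clade A phosphatases such as ABI1 and HAI2, which frees SnRK2 kinases to act on transcription factors and channels. Many clade A phosphatase and CYP707A genes are themselves induced by the hormone, which makes them part of its negative feedback. In warm seedlings the pathway is known mainly for its part in water loss through stomata.

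Expression was given by the authors in TPM (transcripts per 1000000, per gene length). Between 11454833 reads (Col at 27 °C, replicate 3) and 14554413 reads (Col at 21 °C, replicate 3) could be recovered behind the values of a library. FVE itself averaged 6.82 ± 0.18 TPM in fve-4 at 27 °C and 40.2 ± 1.2 TPM in Col at 27 °C, and 5.15 ± 0.30 TPM in fve-4 at 21 °C and 51.6 ± 1.2 TPM in Col at 21 °C (SD, n = 3 each), with log2 differences of -2.40 and -3.10 at 27 °C and 21 °C, in the direction of the labels. Replicate 1 of fve-4 at 27 °C lay farthest from its group, with a chi-square per degree of freedom of 5.68 and 4.91 against the other two libraries, which differed from each other by 1.96. The other groups ran from 1.85 to 4.33. Whether the replicates grew as separate cultures is not in the labels, so p-values measure only the spread between these libraries, which may be technical. The 3 leaf marker genes were present in every library. In whole seedlings fewer cells of a type cannot be told apart from less RNA per cell.

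All 10 genes passed the filter of at least 1 TPM in at least 3 libraries, CYP707A2 only through the 3 libraries of Col at 21 °C. Each was tested within a limma fit of log2(TPM + 1) over 19863 genes, and a gene was called where its adjusted p (Benjamini-Hochberg, over all 19863) was under 0.05. Log2 changes compare group means of log2(TPM + 1) and carry their standard error (SE), a scale that understates the change of genes near 1 TPM. In fve-4, warmth raised 1 of the 10 genes and lowered 4, where 39.2% of all genes tested were called, 25.2% higher and 14.0% lower. In Col, 2 were called higher with warmth and 4 lower, where 61.9% of all genes were called, 36.7% higher and 25.1% lower. One of those 4, CYP707A2, entered the tests only through the group in which it was high. The change with warmth in fve-4 minus that in Col, the interaction, was called above 0 for 1 gene and below 0 for 2, against 14.4% and 18.0% of all genes (32.4% together). Between the genotypes at 27 °C, 1 gene was higher and 1 lower in fve-4, against 20.9% and 17.6% of all genes (38.5% together). At 21 °C, 2 were higher and 1 was lower in fve-4, against 15.3% and 8.49% of all genes (23.8% together). With 10 genes these counts are too small to set the group apart from the background, and each gene is described on its own. The median change of the 10 genes was -0.22 with warmth in fve-4 and -0.16 with warmth in Col, beside medians of 0.07 and 0.08 over all genes tested. The scaling decides part of the balance for all genes: of those called with warmth in fve-4, 64.2% were higher, against 49.8% after median-ratio rescaling, and at 21 °C 64.3% were higher in fve-4, against 47.9%. The plot of TPM by library shows all 120 values.

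**Figure D1:**
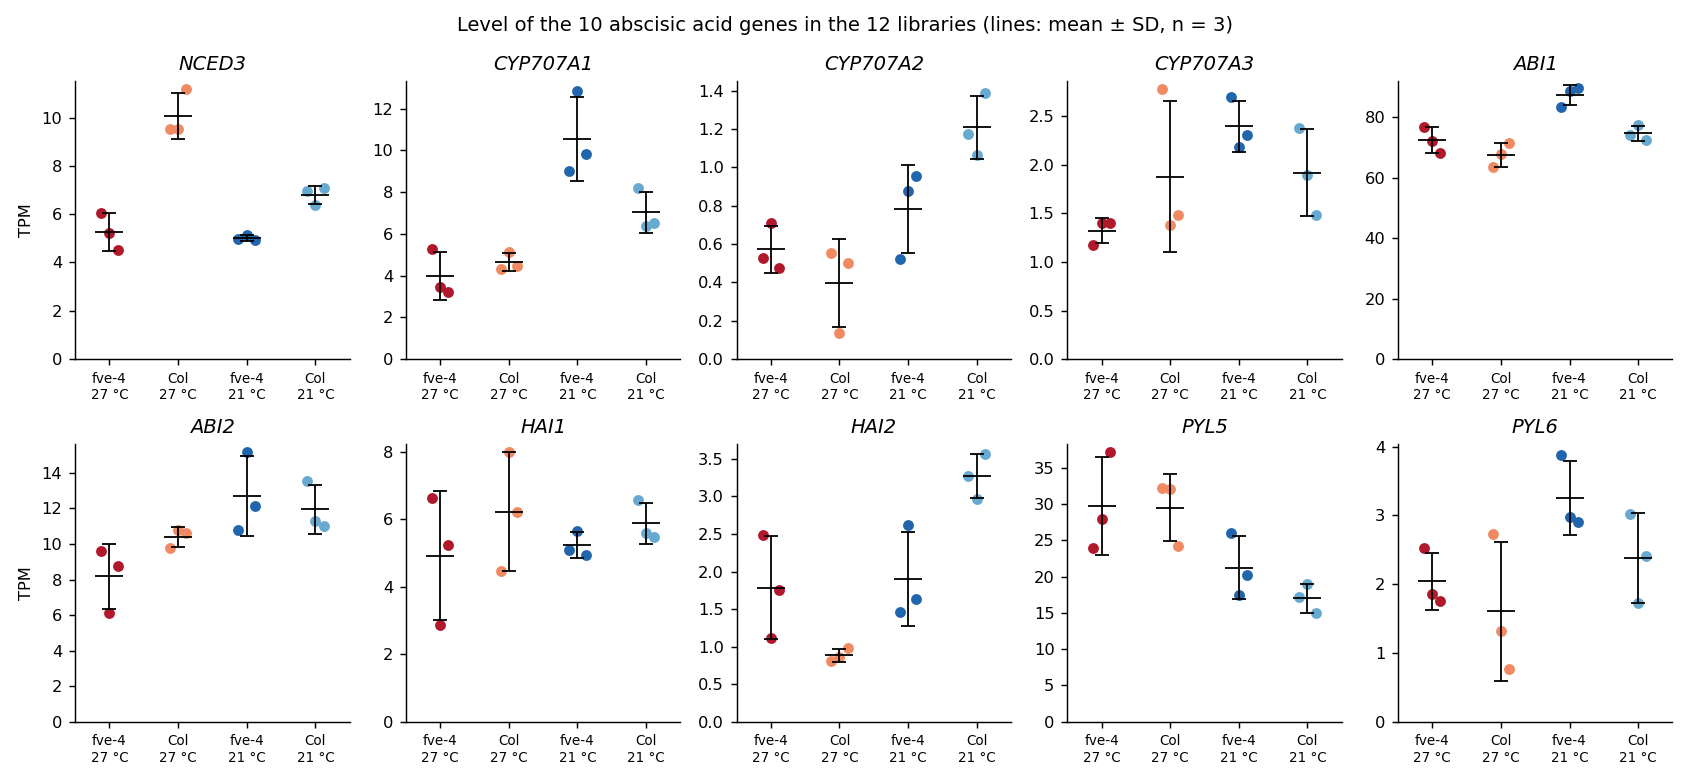
TPM (vertical axes, linear, starting at 0) of the 10 genes in the 12 libraries, with the groups fve-4 at 27 °C, Col at 27 °C, fve-4 at 21 °C and Col at 21 °C along each horizontal axis. Points are libraries and lines are the mean ± SD (n = 3). NCED3 in Col at 27 °C lies between 9.51 and 11.2 TPM, above every other library, and HAI2 in Col at 27 °C lies below 1 TPM in all 3 libraries.

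NCED3, the dioxygenase that carries drought-induced synthesis of the hormone, rose with warmth in Col and was lower in fve-4 than in Col at both temperatures. It stood at 6.05, 5.22 and 4.51 TPM in fve-4 at 27 °C, against 9.53, 9.51 and 11.2 TPM in Col at 27 °C. At 21 °C it stood at 4.98, 5.14 and 4.93 TPM in fve-4, against 6.97, 6.38 and 7.07 TPM in Col. The 3 Col libraries at 27 °C were the highest of all, the 3 Col libraries at 21 °C came next, and the 6 mutant libraries lay below them and overlapped with each other across temperatures. With warmth, the log2 change of NCED3 was 0.05 ± 0.11 (SE) in fve-4, with a 95% interval of -0.19 to 0.29. In Col it rose by 0.50 ± 0.11, with an adjusted p of 0.00137 in limma, which is a ratio of mean TPM of 1.48. At 27 °C, NCED3 was lower in fve-4 by a log2 difference of -0.83 ± 0.11 (limma, adjusted p = 9.98e-05), so that mean TPM in fve-4 was 0.522 of that in Col. The calls for warmth in Col and for genotype at 27 °C held in all 23 alternatives tried. At 21 °C the log2 difference was -0.38 ± 0.11 (limma, adjusted p = 0.0259). That call ended without replicate 1 or 3 of Col at 21 °C or without any of the 3 mutant libraries at 21 °C, where adjusted p lay between 0.0543 and 0.0810 (range over all alternatives 0.00958 to 0.0810). The difference between the genotypes in the change with warmth was -0.45 ± 0.16 (limma, adjusted p = 0.0417). It was lost in 16 of 22 alternatives, 10 of them leaving out a single library (any but replicate 1 of either genotype at 27 °C), and adjusted p ranged from 0.0213 to 0.101. Leaving out replicate 1 of fve-4 at 27 °C gave -0.54 and 0.0213. Between 74 and 159 reads lay behind each NCED3 value.

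Within its family NCED3 held most of the transcripts. On TPM recomputed with exon lengths, which makes genes comparable, the 5 NCED genes summed to 4.45 in fve-4 at 27 °C, 7.90 in Col at 27 °C, 4.50 in fve-4 at 21 °C and 6.23 in Col at 21 °C. NCED3 was 87.5%, 94.7%, 82.6% and 80.8% of these sums, as means over the 3 libraries of each group in that order. NCED6 was listed at 0 in all libraries, and NCED2, NCED5 and NCED9 stayed under the filter and were not tested. Among the 8660 tested genes with a symbol, the 4 group means of RBL5 (AT1G52580, a rhomboid-like protein), CBF1 (AT4G25490, a transcription factor of the cold response) and CYP94B1 (AT5G63450, a hydroxylase of the jasmonate conjugate) were nearest to those of NCED3. The root-mean-square difference of centred log2(TPM + 1) means was 0.0280, 0.0529 and 0.0595 over the 4 groups. Of these, CYP94B1 stood at 11.8, 9.31 and 9.61 TPM in fve-4 at 27 °C, 20.1, 23.6 and 18.6 TPM in Col at 27 °C, 10.5, 10.8 and 8.57 TPM in fve-4 at 21 °C, and 12.1, 16.2 and 10.5 TPM in Col at 21 °C. The other two are low, with library values between 0.559 and 3.39 TPM for RBL5 and between 0 and 2.82 TPM for CBF1, whose groups overlap.

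Of the CYP707A genes, which encode the 8′-hydroxylases that start breakdown, CYP707A1 and CYP707A3 fell with warmth in fve-4, and CYP707A1 fell in Col. CYP707A1 stood at 5.28, 3.43 and 3.20 TPM in fve-4 at 27 °C, against 8.99, 12.8 and 9.83 TPM in fve-4 at 21 °C. In Col it stood at 4.31, 5.14 and 4.47 TPM at 27 °C, against 8.17, 6.38 and 6.52 TPM at 21 °C. The 21 °C libraries of each genotype lay above all its 27 °C libraries, the 3 mutant libraries at 21 °C were the highest of all, and at 27 °C the genotypes overlapped. The log2 change with warmth was -1.23 ± 0.17 in fve-4 (limma, adjusted p = 6.33e-05) and -0.50 ± 0.17 in Col (adjusted p = 0.0171). Mean TPM in the warmth was 0.377 of that at 21 °C in fve-4 and 0.661 in Col. The mutant's call held in all 23 alternatives, and the call in Col ended without replicate 1 of Col at 21 °C (0.0769, the highest of all alternatives, whose lowest was 0.00373) or without replicate 1 of Col at 27 °C (0.0522). The change in fve-4 minus that in Col was -0.72 ± 0.23 (limma, adjusted p = 0.0312). That call was lost without replicate 2 or 3 of Col at 21 °C, replicate 2 of fve-4 at 21 °C, replicate 2 of Col at 27 °C or replicate 2 or 3 of fve-4 at 27 °C, with adjusted p between 0.0683 and 0.0813 (range over 22 alternatives 0.00650 to 0.0813).

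Between the genotypes, CYP707A1 passed the test at 21 °C, where it was higher in fve-4 by 0.52 ± 0.17 (limma, adjusted p = 0.0373), a ratio of mean TPM of 1.5. At 27 °C the log2 difference was -0.20 ± 0.17, with a 95% interval of -0.56 to 0.15. The call at 21 °C was lost in 6 of 23 alternatives, which included leaving out replicate 2 or 3 of Col at 21 °C (0.115 and 0.111) and replicate 2 or 3 of fve-4 at 21 °C (0.155 and 0.0576), in a range of 0.0127 to 0.155.

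CYP707A3, a hydroxylase with a known part in drought recovery, stood at 1.17, 1.40 and 1.40 TPM in fve-4 at 27 °C, against 2.70, 2.19 and 2.31 TPM in fve-4 at 21 °C. In Col it stood at 2.78, 1.38 and 1.48 TPM at 27 °C, against 2.38, 1.90 and 1.49 TPM at 21 °C. The mutant's libraries did not overlap between temperatures, whereas in Col they did, with replicate 1 at 27 °C the highest of all 12. The change with warmth was -0.55 ± 0.19 in fve-4 (limma, adjusted p = 0.0357) and -0.04 ± 0.19 in Col (95% interval -0.45 to 0.37). The call in fve-4 ended when any of the 6 mutant libraries was left out, with adjusted p between 0.0552 and 0.106 (range over 22 alternatives 0.0138 to 0.106). The interaction was -0.50 ± 0.27 and did not pass the test (limma, adjusted p = 0.173). CYP707A2, best known from seeds, stood at 0.529, 0.711 and 0.476 TPM in fve-4 at 27 °C, 0.552, 0.133 and 0.502 TPM in Col at 27 °C, 0.522, 0.876 and 0.953 TPM in fve-4 at 21 °C, and 1.17, 1.06 and 1.39 TPM in Col at 21 °C. The Col libraries at 21 °C alone exceeded 1 TPM and lay above the rest. Its log2 change with warmth was -0.18 ± 0.19 in fve-4 (95% interval -0.58 to 0.23) and -0.67 ± 0.19 in Col. The gene reached the tests only through Col at 21 °C, the group in which it was high, and rests on 4 to 44 reads a library, so the difference in Col is a description and its call supports nothing. The family sum on exon lengths averaged 5.93 TPM in fve-4 at 27 °C, 6.77 TPM in Col at 27 °C, 13.7 TPM in fve-4 at 21 °C and 10.6 TPM in Col at 21 °C. CYP707A1 was the most abundant member in every group, with a mean share between 62.5% and 72.3%.

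The 250 bases before the annotated starts of CYP707A1 and CYP707A3 are shown because both genes fell with warmth in fve-4 and because their promoters share an exact stretch. The sequences come from RefSeq's TAIR10.1 assembly and run 5′ to 3′ on the gene's strand. Capitals mark ACGTG, the core of the ABRE element bound by ABF factors, on either strand. In both promoters it lies within CACGTG, the G-box, which holds the core once on each strand.
CYP707A1, plus strand, chr4:10521009-10521258: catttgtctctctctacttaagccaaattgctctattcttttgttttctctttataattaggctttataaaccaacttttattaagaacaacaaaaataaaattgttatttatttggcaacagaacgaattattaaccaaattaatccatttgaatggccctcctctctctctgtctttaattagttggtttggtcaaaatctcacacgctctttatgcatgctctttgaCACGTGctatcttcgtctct
CYP707A3, minus strand, chr5:18371022-18371271: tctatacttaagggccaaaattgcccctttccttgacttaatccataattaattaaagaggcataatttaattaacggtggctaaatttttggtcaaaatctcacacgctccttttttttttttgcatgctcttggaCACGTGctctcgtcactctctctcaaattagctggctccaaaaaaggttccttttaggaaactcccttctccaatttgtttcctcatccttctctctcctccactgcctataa
The stretch tttggtcaaaatctcacacgctc, 23 bases long, stands 61 bases before the start of CYP707A1 and 162 bases before that of CYP707A3, counted from its first base. It was picked as the longest run that these 2 promoters share, so its presence in both was given, and other pairs were not compared. The stretch occurs in 2 of the 27443 promoters of this length, which are these. The G-box begins 20 bases before the start in CYP707A1 and 113 bases before it in CYP707A3. CACGTG is held by 6.49% of all such promoters and ACGTG by 22.9%, and among the 10 genes these numbers are 2 and 3. A match of letters describes the sequence only.

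Of the 4 clade A phosphatases among the 10 genes, which restrain SnRK2 kinases until a receptor holds them, HAI2 had the largest log2 change. HAI2 stood at 2.49, 1.11 and 1.76 TPM in fve-4 at 27 °C, against 0.811, 0.863 and 0.983 TPM in Col at 27 °C. At 21 °C it stood at 1.46, 2.61 and 1.64 TPM in fve-4, against 3.28, 2.97 and 3.56 TPM in Col. The Col libraries were the lowest of all in the warmth and the highest at 21 °C, and the mutant libraries lay between them at both temperatures. With warmth, the log2 change of HAI2 was -0.07 ± 0.20 in fve-4, with a 95% interval of -0.49 to 0.36. In Col it fell by 1.18 ± 0.20 (limma, adjusted p = 0.000146), to a mean TPM 0.271 of that at 21 °C. The interaction was 1.11 ± 0.28 (limma, adjusted p = 0.00845). The call in Col and the interaction held in every alternative that gave a value, with adjusted p of the interaction between 0.00315 and 0.0230. At 27 °C HAI2 was higher in fve-4 by 0.53 ± 0.20 (limma, adjusted p = 0.0467), a call that was lost in 16 of 22 alternatives, 9 of which leave out a single library (any of Col, replicate 3 of fve-4 at 21 °C, or replicate 1 or 3 of fve-4 at 27 °C). Without replicate 1 of fve-4 at 27 °C the log2 difference was 0.36 (adjusted p = 0.20, in a range of 0.0145 to 0.362). At 21 °C the log2 difference was -0.57 ± 0.20 with an adjusted p of 0.050 that lay just above the threshold in limma and below it in 10 of 22 alternatives (range 0.0192 to 0.164), among them those without replicate 2 of fve-4 at 21 °C or replicate 1 or 2 of fve-4 at 27 °C. Between 10 and 48 reads lay behind each HAI2 value.

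The promoter of HAI2 is printed because it holds 4 copies of the ACGTG core on either strand (capitals), the most among the 10 genes, and no CACGTG.
HAI2, minus strand, chr1:2282829-2283078: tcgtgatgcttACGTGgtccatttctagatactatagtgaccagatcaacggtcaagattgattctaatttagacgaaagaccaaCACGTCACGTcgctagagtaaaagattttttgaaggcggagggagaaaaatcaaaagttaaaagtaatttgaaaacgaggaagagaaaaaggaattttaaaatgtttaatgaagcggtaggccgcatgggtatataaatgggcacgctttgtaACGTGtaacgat
The copies begin 239, 165, 160 and 12 bases before the annotated start, and those at 165 and 160 bases touch each other. The promoters of NCED3, CYP707A2, ABI1, ABI2, HAI1, PYL5 and PYL6 hold no ACGTG in their 250 bases.

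ABI1, the most abundant of the 10 genes per exon length, had small changes. It stood at 76.7, 72.2 and 68.2 TPM in fve-4 at 27 °C, 63.6, 67.7 and 71.5 TPM in Col at 27 °C, 83.5, 88.5 and 89.8 TPM in fve-4 at 21 °C, and 74.1, 77.5 and 72.5 TPM in Col at 21 °C. The mutant libraries at 21 °C lay above all others, and at 27 °C the genotypes overlapped. The log2 change with warmth was -0.27 ± 0.06 in fve-4 (limma, adjusted p = 0.00234) and -0.14 ± 0.06 in Col (adjusted p = 0.0445). The mutant's call held in all 23 alternatives. The call in Col was lost in 11 of 23, which included leaving out any library of Col at 21 °C, replicate 1 or 2 of Col at 27 °C or replicate 2 of either mutant group, with adjusted p up to 0.178 and as low as 0.00118. At 21 °C ABI1 was higher in fve-4 by 0.22 ± 0.06 (limma, adjusted p = 0.0143), and without replicate 3 of Col at 21 °C adjusted p was 0.0571 (range 0.0105 to 0.0571). The annotated ABI1 shares 22 bases with its neighbour AT4G26070.

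ABI2, whose dominant mutant gave the gene its name as abscisic acid insensitive, stood at 9.62, 6.14 and 8.75 TPM in fve-4 at 27 °C, against 10.8, 15.2 and 12.2 TPM in fve-4 at 21 °C. In Col it stood at 9.75, 10.8 and 10.6 TPM at 27 °C, against 13.5, 11.3 and 11.0 TPM at 21 °C. The mutant's 27 °C libraries were the lowest of all. In fve-4, ABI2 fell with warmth by 0.59 ± 0.15 on the log2 scale (limma, adjusted p = 0.00682, at most 0.0361 in 23 alternatives), to a mean of 0.643 of that at 21 °C. In Col the change was -0.18 ± 0.15 (95% interval -0.50 to 0.14), and the interaction of -0.41 ± 0.21 did not pass the test (limma, adjusted p = 0.161). At 27 °C the log2 difference between the genotypes was -0.33 ± 0.15 (limma, adjusted p = 0.0950), and without replicate 1 of fve-4 at 27 °C it was -0.45 and called (0.0466, in a range of 0.0453 to 0.379). HAI1, a phosphatase strongly induced by drought, passed no test. It averaged 4.92 ± 1.9 TPM in fve-4 at 27 °C, 6.22 ± 1.8 TPM in Col at 27 °C, 5.24 ± 0.37 TPM in fve-4 at 21 °C and 5.88 ± 0.61 TPM in Col at 21 °C (SD, n = 3 each), and its groups overlapped in every comparison. Its log2 changes lay between -0.31 and 0.04 with SE of 0.22, or 0.31 for the interaction. On exon lengths, the 9 clade A phosphatases summed to 183 TPM in fve-4 at 27 °C, 179.6 TPM in Col at 27 °C, 214 TPM in fve-4 at 21 °C and 214 TPM in Col at 21 °C. ABI1 was between 29.4% and 34.3% of these sums as group means, ABI2 between 3.60% and 4.82%, HAI1 between 2.21% and 3.13%, and HAI2 between 0.400% and 1.24%.

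**Figure D2:**
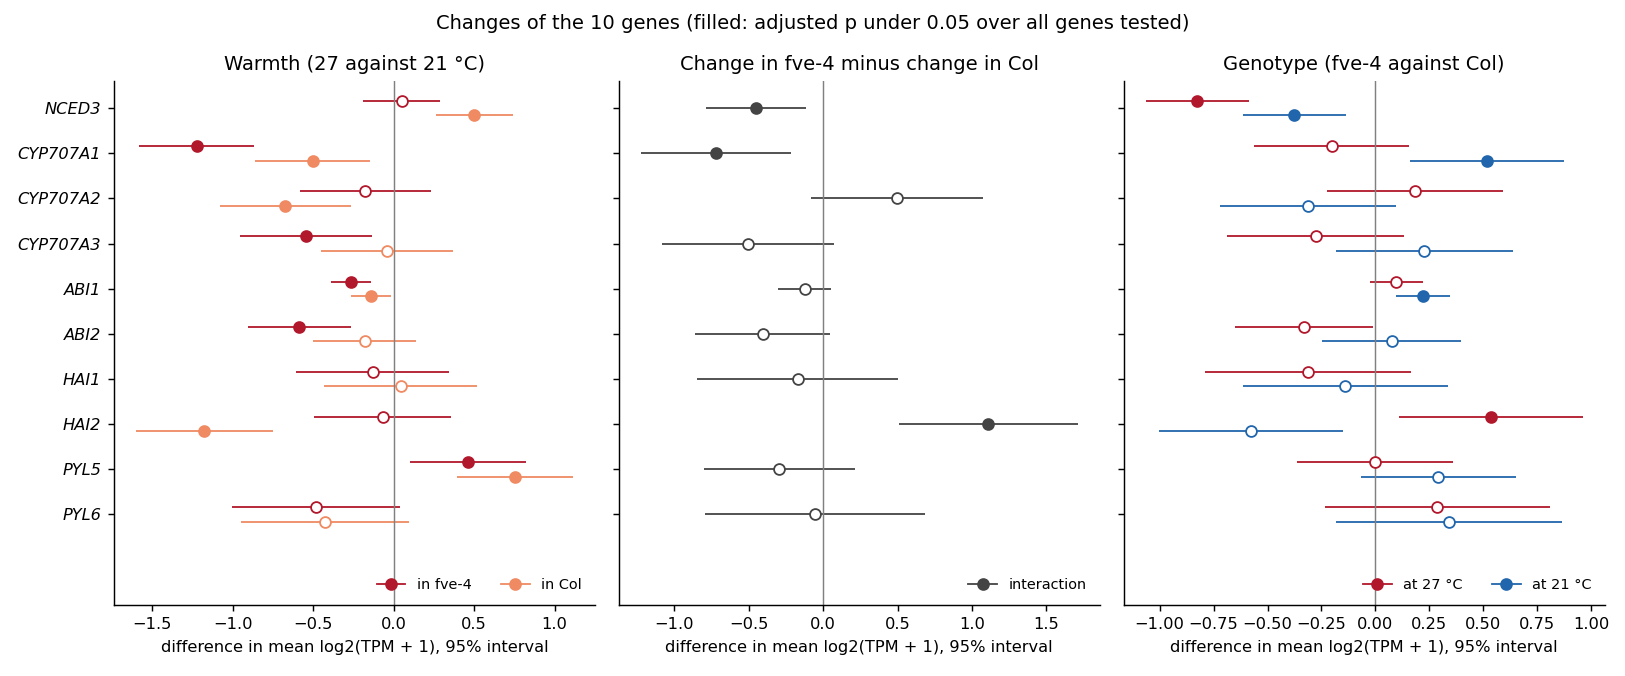
Differences of mean log2(TPM + 1) (horizontal axes) of the 10 genes with 95% intervals, for warmth in fve-4 and Col (left), the change in fve-4 minus that in Col (middle) and fve-4 against Col at 27 °C and 21 °C (right). Filled points had an adjusted p under 0.05 in limma. HAI2 lies at -0.07 for warmth in fve-4 and -1.18 in Col, whereas CYP707A1 lies at -1.23 in fve-4 and -0.50 in Col.

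The receptors differed from each other. PYL5 was higher in the warmth, with 24.0, 27.9 and 37.2 TPM in fve-4 at 27 °C, against 26.0, 17.5 and 20.2 TPM in fve-4 at 21 °C. In Col it stood at 32.2, 32.0 and 24.2 TPM at 27 °C, against 17.1, 18.9 and 14.9 TPM at 21 °C. All Col libraries at 27 °C lay above those at 21 °C, and the mutant's libraries overlapped through replicate 1 of each temperature. PYL5 rose with warmth by 0.46 ± 0.17 on the log2 scale in fve-4 (limma, adjusted p = 0.0428) and by 0.75 ± 0.17 in Col (adjusted p = 0.0014, at most 0.00852 in 23 alternatives). The call in fve-4 was lost in 12 of 23 alternatives, which included leaving out replicate 1 of Col at 21 °C or replicate 2 or 3 of either mutant group, with adjusted p from 0.0144 to 0.194. The interaction was -0.29 ± 0.24 (95% interval -0.80 to 0.22), and the genotypes differed by -0.00 ± 0.17 at 27 °C (95% interval -0.36 to 0.36). PYL6 stood at 2.52, 1.86 and 1.76 TPM in fve-4 at 27 °C, 2.73, 1.32 and 0.765 TPM in Col at 27 °C, 3.88, 2.98 and 2.90 TPM in fve-4 at 21 °C, and 3.02, 1.72 and 2.40 TPM in Col at 21 °C. In fve-4 the 27 °C libraries lay below those at 21 °C, and in Col they overlapped. No PYL6 difference passed the test, with -0.48 ± 0.24 for warmth in fve-4 (95% interval -1.01 to 0.04) and -0.43 ± 0.24 in Col (95% interval -0.95 to 0.09). Without replicate 1 of Col at 27 °C the change in Col was -0.72 and called (limma, adjusted p = 0.0104, in a range of 0.0104 to 0.521), as was the difference between the genotypes at 27 °C (0.58, adjusted p = 0.0489, in a range of 0.0489 to 0.987). On exon lengths the 14 receptor genes summed to 384 TPM in fve-4 at 27 °C, 436 TPM in Col at 27 °C, 264 TPM in fve-4 at 21 °C and 230.2 TPM in Col at 21 °C. PYL5 held between 5.01% and 5.95% of these sums as group means and PYL6 under 1%, while PYL8 held the largest part.

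**Figure D3:**
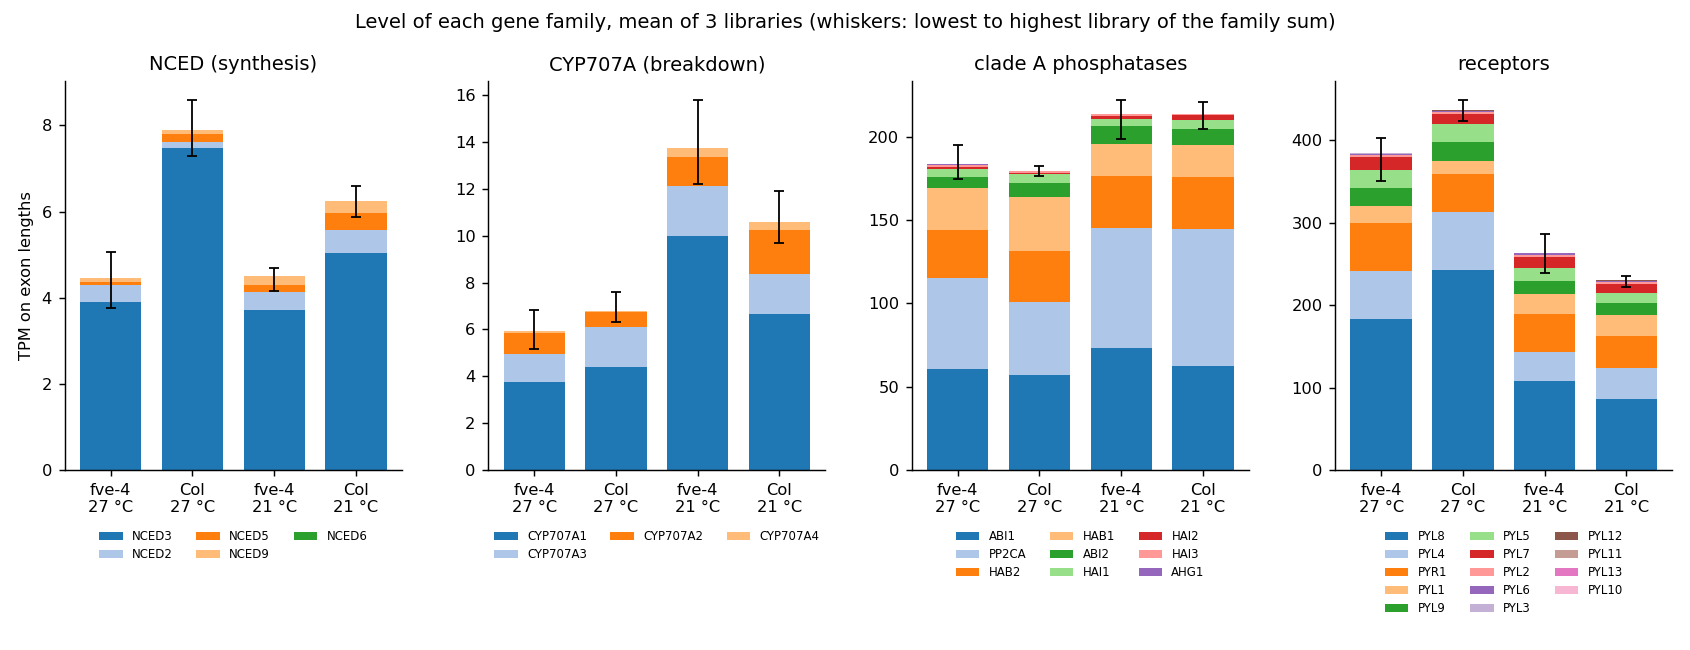
Mean TPM on exon lengths (vertical axes, starting at 0) of the NCED, CYP707A, clade A phosphatase and receptor families, stacked by gene, in fve-4 at 27 °C, Col at 27 °C, fve-4 at 21 °C and Col at 21 °C. Whiskers span the lowest to the highest library of the family sum (n = 3). The NCED sum is highest in Col at 27 °C (7.90), the CYP707A sum in fve-4 at 21 °C (13.7) and the receptor sum in Col at 27 °C (436).

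The other genes of the pathway, a list of 57 with 45 tested, place the 10 genes among their partners. With warmth, 10 of the 45 rose and 11 fell in fve-4, with a median log2 change of -0.01, and 20 rose and 11 fell in Col, with a median of 0.22. Among all genes tested, 25.2% were called higher and 14.0% lower in fve-4, and 36.7% and 25.1% in Col. After median-ratio rescaling the numbers in fve-4 were 8 and 14. The interaction was above 0 for 6 of the 45 and below 0 for 14, beside 14.4% and 18.0% of all genes. Of the 7 receptors tested, 4 rose and 1 fell in each genotype. PYL8, a receptor of the monomeric kind, rose to 215 ± 15 TPM in fve-4 and 283 ± 2.7 TPM in Col at 27 °C, against 126 ± 15 TPM in fve-4 and 101 ± 2.0 TPM in Col at 21 °C (SD, n = 3 each), or by 0.77 ± 0.07 and 1.48 ± 0.07 on the log2 scale in fve-4 and Col. PYL4 rose by 0.65 ± 0.10 in fve-4 and 0.88 ± 0.10 in Col, and PYL1 fell by 0.28 ± 0.08 and 0.64 ± 0.08. Of the other phosphatases, HAB1 rose by 0.36 ± 0.07 in fve-4 and 0.71 ± 0.07 in Col, whereas PP2CA fell by 0.39 ± 0.07 in fve-4 and 0.89 ± 0.07 in Col. HAB2 and HAI3 passed no test.

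The SnRK2 kinases, which the phosphatases restrain, moved differently in the genotypes. In Col all 3 rose with warmth, and the interaction was below 0 for all 3. Among all genes tested, 36.7% were called higher with warmth in Col and 18.0% had an interaction below 0. OST1, the kinase of guard cells, averaged 15.6 ± 0.59 TPM in fve-4 at 27 °C, 23.3 ± 0.25 TPM in Col at 27 °C, 18.5 ± 0.82 TPM in fve-4 at 21 °C and 15.5 ± 1.8 TPM in Col at 21 °C (SD, n = 3 each). Its log2 change with warmth was -0.24 ± 0.08 in fve-4 (limma, adjusted p = 0.0320) and 0.56 ± 0.08 in Col (adjusted p = 3.42e-05), with an interaction of -0.80 ± 0.11 (adjusted p = 0.000190). SnRK2.3 rose by 0.41 ± 0.07 in fve-4 and 0.96 ± 0.07 in Col, and SnRK2.2 changed by -0.05 ± 0.05 in fve-4 and rose by 0.40 ± 0.05 in Col. At 21 °C all 3 were higher in fve-4, by 0.19 to 0.39 on the log2 scale, beside 15.3% of all genes called higher. Of the 6 transcription factors tested, 1 rose and 1 fell with warmth in fve-4 (25.2% and 14.0% of all genes). In Col 4 rose (36.7% of all genes). ABF3, which binds the ACGTG core, averaged 55.9 ± 6.6 TPM in fve-4 at 27 °C, 87.7 ± 7.6 TPM in Col at 27 °C, 33.8 ± 3.8 TPM in fve-4 at 21 °C and 31.1 ± 3.8 TPM in Col at 21 °C (SD, n = 3 each), and its interaction was -0.76 ± 0.15 (limma, adjusted p = 0.00210). ABF4 had an interaction of -0.71 ± 0.08, and ABI3, known from seeds, was lower in fve-4 by a log2 difference of -1.02 ± 0.19 at 27 °C and -0.58 ± 0.19 at 21 °C.

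Target genes did not share 1 direction. Of 13, 1 rose and 5 fell with warmth in fve-4 (25.2% and 14.0% of all genes), and 5 rose and 6 fell in Col (36.7% and 25.1% of all genes). RD29A, a gene induced by drought and cold, averaged 13.5 ± 2.1 TPM in fve-4 at 27 °C, 23.6 ± 4.1 TPM in Col at 27 °C, 29.1 ± 3.0 TPM in fve-4 at 21 °C and 63.6 ± 1.8 TPM in Col at 21 °C (SD, n = 3 each), lower in the warmth and lower in fve-4. RD29B, a late target driven by ABRE elements, rose in Col by 0.86 ± 0.11 and was lower in fve-4 at 27 °C by a log2 difference of -0.58 ± 0.11. AFP3, a partner of ABI5, rose in Col by 0.98 ± 0.11 and had an interaction of -0.99 ± 0.15. In the steps around NCED3, ABA2, which acts after the cleavage, averaged 26.5 ± 2.4 TPM in fve-4 at 27 °C, 14.0 ± 2.5 TPM in Col at 27 °C, 23.2 ± 0.96 TPM in fve-4 at 21 °C and 17.2 ± 1.1 TPM in Col at 21 °C (SD, n = 3 each). It was higher in fve-4 by 0.88 ± 0.11 at 27 °C (limma, adjusted p = 5.04e-05) and by 0.41 ± 0.11 at 21 °C (adjusted p = 0.0146), the opposite direction to NCED3. ABA4 was higher in fve-4 by 0.40 ± 0.09 at 27 °C, and ABA1, the epoxidase, was lower by a log2 difference of -0.25 ± 0.08. Of 45 genes, 9 were higher and 18 lower in fve-4 at 27 °C, beside 20.9% and 17.6% of all genes, and 11 were higher and 4 lower at 21 °C, beside 15.3% and 8.49% of all genes. BG1, the glucosidase that frees the stored hormone, stood at 424, 130.5 and 127 TPM in fve-4 at 27 °C, between 40.2 and 47.6 TPM in Col at 27 °C, between 70.7 and 82.1 TPM in fve-4 at 21 °C and between 56.8 and 65.9 TPM in Col at 21 °C, so its highest value belongs to the library that lay farthest from its group. The exporter DTX50 averaged 3.36 ± 0.72 TPM in fve-4 at 27 °C, 7.95 ± 1.1 TPM in Col at 27 °C, 6.73 ± 1.8 TPM in fve-4 at 21 °C and 21.7 ± 1.7 TPM in Col at 21 °C (SD, n = 3 each).

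**Figure D4:**
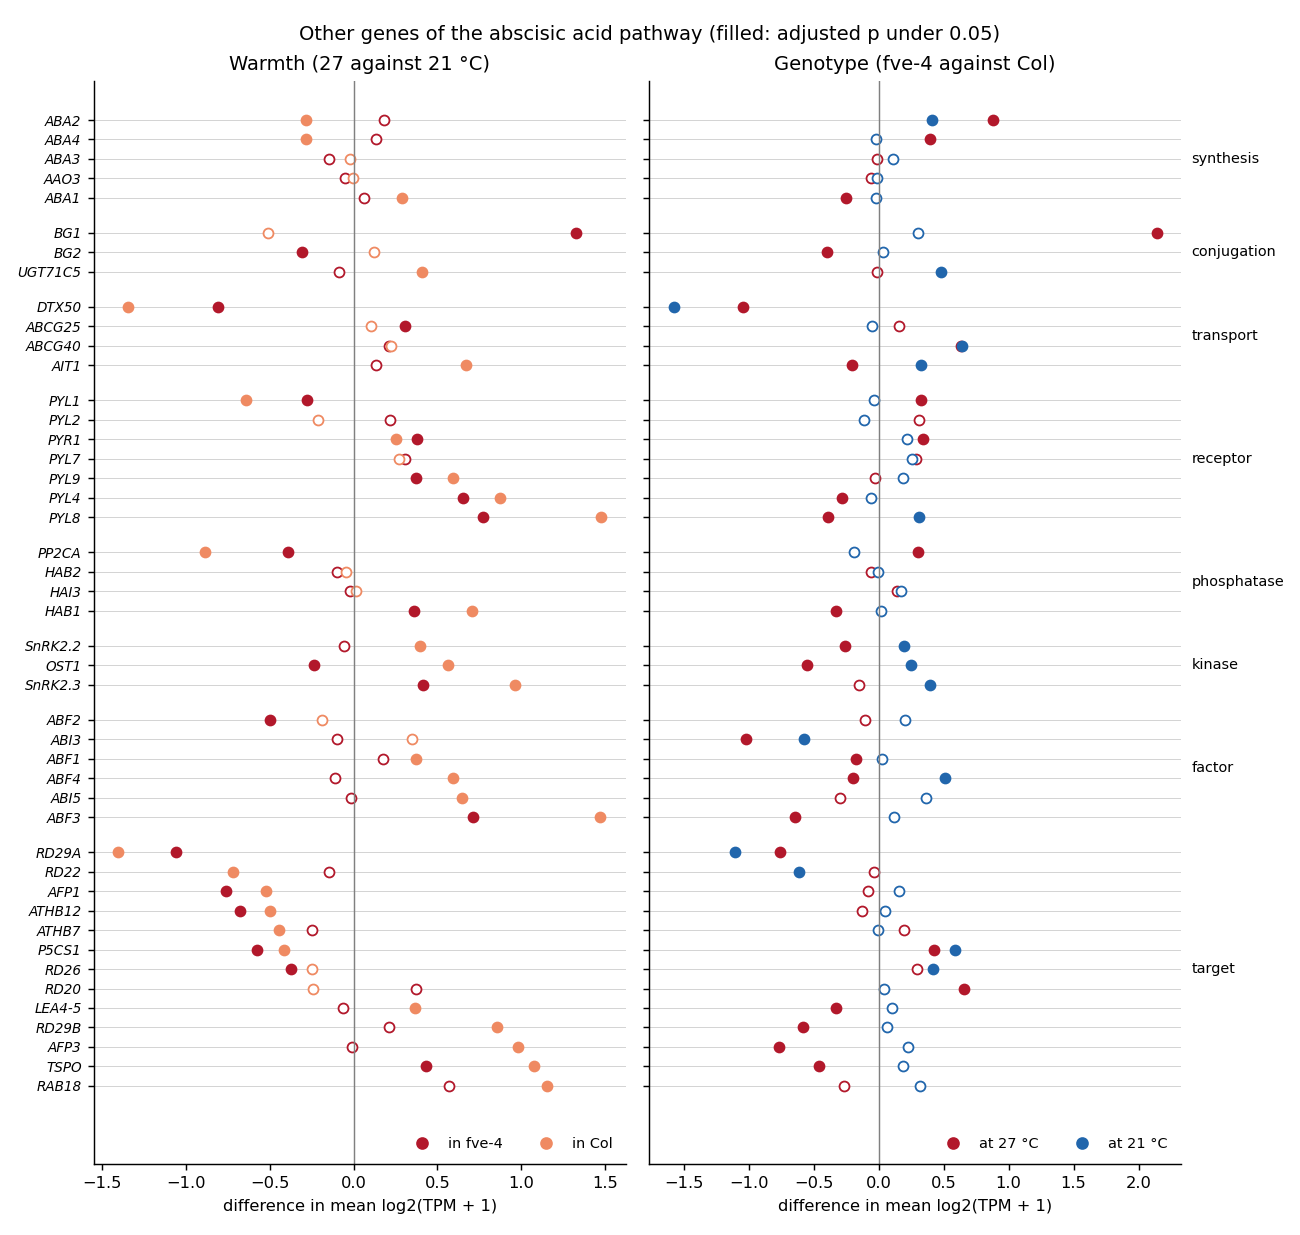
Differences of mean log2(TPM + 1) (horizontal axes) of the 45 other pathway genes tested, by role, for warmth in fve-4 and Col (left) and for fve-4 against Col at 27 °C and 21 °C (right). Filled points had an adjusted p under 0.05 in limma. The 3 kinases lie above 0 for warmth in Col and for genotype at 21 °C, and below 0 for genotype at 27 °C, where SnRK2.3 is not filled.

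Markers of cell types that use the hormone also changed. Among all genes tested, 25.2% were called higher and 14.0% lower with warmth in fve-4, and 36.7% and 25.1% in Col. For the interaction these shares were 14.4% above and 18.0% below 0. Between the genotypes at 27 °C, 20.9% were higher and 17.6% lower in fve-4. The summed level of 5 guard cell genes lay between 76.8 and 97.4 TPM in fve-4 at 27 °C, 104 and 119 TPM in Col at 27 °C, 76.0 and 101 TPM in fve-4 at 21 °C, and 81.8 and 83.9 TPM in Col at 21 °C. With warmth, 1 of the 5 rose and 2 fell in fve-4, and 2 rose in Col. The interaction was below 0 for 3, and 3 were lower in fve-4 at 27 °C. AT1G22690, the largest part of the sum at 27 °C, averaged 43.8 ± 10.8 TPM in fve-4 and 29.6 ± 0.99 TPM in Col there (SD, n = 3 each). The other guard cell genes averaged less in fve-4 than in Col at 27 °C. MYB60 stood at 16.7 against 23.8 TPM, KAT1 at 8.98 against 24.1 TPM and SLAC1, whose libraries overlapped, at 3.42 against 4.95 TPM. FAMA, the factor that sets guard cell fate, averaged 15.6 ± 0.92 TPM in fve-4 at 27 °C, 27.5 ± 0.73 TPM in Col at 27 °C, 18.3 ± 0.53 TPM in fve-4 at 21 °C and 17.3 ± 1.8 TPM in Col at 21 °C (SD, n = 3 each). The 5 vascular genes, from a tissue known for NCED3 expression, summed to between 203 and 221 TPM in fve-4 at 27 °C, 229 and 239.7 TPM in Col at 27 °C, 209.9 and 250.2 TPM in fve-4 at 21 °C, and 265 and 271 TPM in Col at 21 °C. SUC2 is the largest part of each sum, and the single genes differed in direction: with warmth 3 of the 5 rose and 1 fell in fve-4, 1 rose and 2 fell in Col, and at 27 °C 2 were higher and 2 lower in fve-4. Of the 10 root genes, 9 were tested, of which 7 were higher and 1 lower in fve-4 at 27 °C, with sums between 2346 and 3144 TPM in fve-4 and 1837 and 2301 TPM in Col. SHR and SCR did not share the direction of the 7. At 27 °C SHR averaged 22.6 TPM in both genotypes, and SCR 32.5 TPM in fve-4 against 39.7 TPM in Col. With warmth, 0 of the 9 root genes were called in fve-4, and 1 rose and 6 fell in Col, with a median log2 change of -0.75 there. The interaction was above 0 for 4 and below 0 for 1. Sums of the root genes at 21 °C lay between 2273 and 2419 TPM in fve-4 and 2979 and 3101 TPM in Col. PYK10 is the largest part of each root sum. Of the 9 tested root genes, 1 was lower in fve-4 at 21 °C and 8 were not called, beside 8.49% of all genes called lower. The 3 leaf genes also differed in direction, with 1 higher, 1 lower and 1 not called with warmth in each genotype. RBCS1A fell by 0.39 on the log2 scale in fve-4 and 0.38 in Col, and LHCB2.1 rose by 2.24 in fve-4 and 2.37 in Col. Between the genotypes at 27 °C, 0 of the 3 leaf genes were higher and 2 were lower in fve-4, with a median log2 difference of -0.23. At 21 °C 0 of the 3 were called. NRT2.1 was the only marker at 0 in all libraries of a group, Col at 27 °C. The 7 seed genes summed to between 46.7 and 117 TPM in fve-4 at 27 °C, 49.7 and 61.6 TPM in Col at 27 °C, 23.2 and 81.2 TPM in fve-4 at 21 °C, and 25.4 and 36.9 TPM in Col at 21 °C. Single high values widen the mutant ranges. In fve-4 at 27 °C CRA1 had a median of 0.309 and a highest value of 33.5 TPM, and CRC 0 and 25.8 TPM. Of 5 seed genes tested, 2 rose with warmth in fve-4 and 3 in Col, and 0 were called between the genotypes at either temperature. The part of cell composition in the changes of the 10 genes was not tested.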

How the data were processed

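Messenger RNA of whole seedlings was measured in 12 libraries in 4 groups of 3. The deposited table holds TPM made by the authors for 27655 genes. The columns are named as gene counts, yet all hold decimals and add up to 1000000, as TPM does. The submitters' processing notes name fastp 0.20.1, HISAT2 2.1.10, DESeq2 1.26.0 and the build TAIR10, without roles. The read counter and strand setting are not given in the sources used here. Whole reads (tolerance 0.01) could be recovered in every library for 99.98% of the 23666 expressed genes with a gene span, so the authors' TPM rest on gene span, introns included. TPM on exon lengths was therefore recomputed for comparing genes (median span over exons 1.31). Intervals on counts are not given; the reads behind a value bound its precision and cover counting error only.

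Lengths, symbols and promoters came from RefSeq's TAIR10.1 annotation, which held 99.24% of the identifiers; printed coordinates refer to TAIR10.1. limma 3.58.1 in R 4.3.3 fitted 1 model of 4 group means with a variance trend to log2(TPM + 1), with 8 residual degrees of freedom and two-sided tests. The fit was also run on simulated data with a single spread for all genes. Only genes with more reads than HAI2, CYP707A2, CYP707A3 and PYL6 were changed there, so that run does not cover these genes. Alternatives changed the pseudocount, filter, scaling, variance trend, libraries, replicate block and gene lengths, or used limma-voom on the recovered reads. Named were all 10 genes, FVE, up to 3 called pathway genes per role and comparison by adjusted p, and the 3 genes nearest to NCED3; HAB2, HAI3, the untested NCED genes and marker genes were named outside this rule. The 10 genes and all lists were chosen with earlier results of these data known. Tables were prepared in Python 3.11.15 (pandas 2.3.3, numpy 2.4.6), and figures with matplotlib 3.10.9.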

Additional observations from a re-analysis of the deposited data

Results flagged for a closer look

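The change with warmth differed between fve-4 and Col, by a test of that difference itself in limma, for 3 of the 10 genes, near the 32.4% of all genes tested, so the count says nothing particular of these genes. For HAI2 the change in fve-4 minus that in Col was 1.11 on the log2(TPM + 1) scale (adjusted p = 0.00845). For CYP707A1 it was -0.72 (adjusted p = 0.0312), and for NCED3 it was -0.45 (adjusted p = 0.0417). HAI2 kept its call in all 21 alternatives that gave a value, CYP707A1 in 16 of 22 and NCED3 in 6 of 22.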

How the results depend on the processing

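Of 1105 values of single genes under the alternatives, 1008 stayed on their side of the threshold, 81 lost a call and 16 gained one. Direction changed in 0 of the values that were called in the main fit or in the alternative. Values called in neither could change direction and are counted among the 1008. NCED3 for warmth in fve-4, for example, was 0.05 in the main fit and -0.04 to 0.14 in the alternatives. Of 19 calls, 9 held in every alternative that gave a value. These include CYP707A2 for warmth in Col and HAI2 for warmth in Col and the interaction, which gave no value where a filter left them out (19, 22 and 21 values). CYP707A2 passed the filter only through Col at 21 °C, so its place among the 9 supports nothing. The counts of the 10 genes moved as follows, and the cause was not tested. With warmth in fve-4, the genes called higher numbered 0 without a filter, with median-ratio or quantile scaling, without the variance trend, with the replicate block, with only the groups compared and with limma-voom. In Col, those called lower numbered 2 under a filter of 5 TPM, which tests fewer genes. For the interaction, genes below 0 numbered 1 without a filter, with median-ratio or quantile scaling, the replicate block, exon lengths or limma-voom, and genes above 0 numbered 0 under the filter of 5 TPM. At 27 °C, genes higher in fve-4 numbered 0 with a pseudocount of 5, the filter of 5 TPM, median-ratio or quantile scaling, the replicate block, only the groups compared, exon lengths or limma-voom, and genes lower numbered 3 with quantile scaling. At 21 °C, genes lower in fve-4 numbered 2 with a pseudocount of 5, no filter, median-ratio or quantile scaling, no variance trend, only the groups compared or limma-voom, and genes higher numbered 1 without a filter and with quantile scaling. All genes lower in fve-4 at 21 °C numbered 1687 and, with limma-voom, 2734. Leaving out 1 library gave, for higher and lower in turn, 0 to 1 and 3 to 4 genes with warmth in fve-4, 2 to 2 and 1 to 4 in Col, 1 to 1 and 0 to 2 for the interaction, 0 to 1 and 1 to 2 at 27 °C, and 0 to 2 and 0 to 2 at 21 °C. The 1 in Col came without replicate 1 of Col at 21 °C, where CYP707A1 and ABI1 lost their calls and CYP707A2 left the filter, as it does without any library of Col at 21 °C. All genes lower in fve-4 at 21 °C ranged from 1083 (without replicate 1 of fve-4 at 21 °C) to 1811, and all genes higher from 2131 to 3269. No pairing by replicate number was seen. In their deviations from the group means, same-numbered libraries correlated between -0.14 and 0.19 over 18 pairs, 2 of them over 0.1. Differently numbered libraries correlated between -0.25 and 0.18. With 3 libraries per group this cannot exclude pairing. The interaction has no value with only the groups compared. HAI2, CYP707A2, CYP707A3 and PYL6 rest on 4 to 48 reads a library, so changes of their size are the least certain.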

Other observations

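Genes that store, move or follow the hormone and are not described above also changed. UGT71C5, which attaches glucose to the hormone, averaged 44.0 ± 3.0 TPM in fve-4 at 27 °C, 44.5 ± 4.4 TPM in Col at 27 °C, 46.8 ± 2.9 TPM in fve-4 at 21 °C and 33.2 ± 1.6 TPM in Col at 21 °C (SD, n = 3 each), with an interaction of -0.50 ± 0.11 on the log2 scale (limma, adjusted p = 0.00383). The importer AIT1 rose with warmth in Col by 0.67 ± 0.07 and had an interaction of -0.54 ± 0.11 (limma, adjusted p = 0.00181). The importer ABCG40 was higher in fve-4 than in Col by 0.63 ± 0.15 at 27 °C and 0.64 ± 0.15 at 21 °C, at 2.02 ± 0.11 and 0.957 ± 0.22 TPM at 27 °C and 1.61 ± 0.21 and 0.671 ± 0.020 TPM at 21 °C, for fve-4 and Col in turn (SD, n = 3 each). The Col libraries alone would not have passed the filter, so ABCG40 reached the tests through fve-4, in which it was high. Its differences are a description, and its calls, counted among the 45 pathway genes, support nothing. AFP1, a binding partner of ABI5, fell with warmth by 0.76 ± 0.10 in fve-4 and 0.52 ± 0.10 in Col, and the homeobox gene ATHB12 fell by 0.68 ± 0.11 in fve-4 and 0.50 ± 0.11 in Col. RD22 fell with warmth in Col by 0.72 ± 0.07 and was lower in fve-4 at 21 °C by a log2 difference of -0.61 ± 0.07. P5CS1, which makes proline, was higher in fve-4 by 0.43 ± 0.13 at 27 °C and 0.58 ± 0.13 at 21 °C.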
